A study of Mus musculus with 23 samples.

Results

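Antibody genes were followed in tumor-adjacent mammary fat of female C57BL/6J mice: the constant regions of 7 heavy chain classes (Ighm, Ighd, Igha, Ighg1, Ighg2b, Ighg2c and Ighg3), the kappa light chain constant region (Igkc), and 2 genes of antibody-secreting cells, Jchain and Mzb1. These 10 genes were taken from a list of names. Every one of them was present among the 47311 genes of the transcript list, and every one was among the 19882 genes that passed the filter on low counts. Bulk RNA was sequenced from 1 library per mouse. Mice with obesity had eaten food with 60% of its energy from fat, and lean mice food with 10%, over weeks 8 to 26 of life, although the treatment text of the lean samples names the high-fat food only. Each mouse received 250000 E0771 cells (a mouse mammary carcinoma line, here with luciferase) in mammary gland 4. From day 3 an antibody against PD-1, an inhibitory receptor of T cells, or its IgG2a isotype control was injected every 3 days at 200 µg per mouse, and tissue was taken on day 21. The groups were obese anti-PD-1 (8 mice), obese IgG2a (5 mice), lean anti-PD-1 (5 mice) and lean IgG2a (5 mice). All mice carried a tumor and received an antibody, so no tumor-free or untreated tissue serves as a baseline.

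An antibody is built of paired heavy and light chains. A naive B cell makes its heavy chain from the Ighm and Ighd constant regions and holds it in the membrane. After activation it can switch to a downstream constant region (the Ighg genes for IgG, Igha for IgA), and when it becomes a plasma cell it changes the 3' end of the heavy chain transcript from a membrane form to a secreted form. Jchain encodes the chain that joins IgM and IgA into polymers, and Mzb1 an endoplasmic reticulum protein that helps assemble secreted IgM in B cells and plasma cells. Adipose tissue holds plasma cells and innate-like B cells of its own, and the inguinal fat pad of the mouse also encloses a lymph node, which is rich in naive B cells.

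The lymph node was the first division of these libraries. Glycam1, a mucin of the high endothelial venules of lymph nodes, lay at or below 0.458 CPM (read counts relative to library size, which was scaled by the trimmed mean method) in 12 libraries and at or above 124 CPM in the other 11, and the division at 10 CPM falls in the gap between them. The libraries without lymph node genes were 6 obese anti-PD-1, 3 obese IgG2a, 2 lean anti-PD-1 and 1 lean IgG2a, and those with them were 2 obese anti-PD-1, 2 obese IgG2a, 3 lean anti-PD-1 and 4 lean IgG2a. Obese mice thus made up 9 of the 12 libraries without lymph node genes and 4 of the 11 with them. The B cell marker Ms4a1 reached at most 0.981 CPM in the libraries without lymph node genes, against 40.5 to 363 CPM in those with them. Summed over 14 tested B cell genes the level was 4.03 to 46.9 CPM without and 570 to 4682 CPM with lymph node genes, and over 7 T cell genes 4.60 to 13.8 and 148 to 874 CPM. Adipocyte genes, the defining markers of the labelled tissue, summed to 10927 to 51516 CPM without and 4613 to 29973 CPM with lymph node genes. In such tissue RNA, fewer cells of a type and less RNA per cell cannot be told apart. Library depth was 49438121 to 77369057 estimated counts. Whether the mice were independent beyond having a library each is not stated, so p-values measure the spread between these libraries.

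The heavy chain constant regions lie in 1 cluster on the minus strand of chromosome 12 (GRCm38), with Ighm at 113418558 to 113422730, Ighd at 113406604 to 113416324, Ighg3 at 113356224 to 113361232, Ighg1 at 113325240 to 113330523, Ighg2b at 113302965 to 113307933, Ighg2c at 113285325 to 113288932 and Igha at 113254830 to 113260236. Igkc lies on chromosome 6 at 70726435 to 70726966 on the plus strand, and Jchain on chromosome 5 at 88519809 to 88527891 on the minus strand. The 3' ends of the coding sequence of Ighm are printed because the split between the secreted and the membrane form is a main result. Both share exons 1 to 3 and the start of exon 4. The secreted transcript, Ighm-201, reads on through exon 4 (113420741 to 113421261) to its own stop codon, while the membrane transcript, Ighm-202, leaves exon 4 early and continues with exons 5 (113418953 to 113419068) and 6 (113418558 to 113418834). Lower case marks the last 30 shared bases, and capitals mark what only 1 form carries, up to the stop codon.
Ighm-201, secreted end: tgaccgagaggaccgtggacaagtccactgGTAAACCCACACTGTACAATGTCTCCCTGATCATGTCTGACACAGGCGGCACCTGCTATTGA
Ighm-202, membrane end: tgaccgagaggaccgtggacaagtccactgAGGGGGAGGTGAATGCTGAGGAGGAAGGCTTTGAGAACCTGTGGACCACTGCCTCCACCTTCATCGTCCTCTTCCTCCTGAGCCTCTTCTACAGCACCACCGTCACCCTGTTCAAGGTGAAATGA
The capitals of the membrane form, 125 bases against 62 in the secreted form, encode the membrane anchor. Because these ends differ, reads over them tell the forms apart, while reads over the shared exons are divided by the estimate.

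The 4 IgG genes are close relatives, so their hinge exons, which differ in length and sequence, are shown. Capitals mark exon 2 of each gene, and the 10 lower-case bases on either side belong to the neighbouring exons of the transcript.
Ighg1-201, 113329844 to 113329882: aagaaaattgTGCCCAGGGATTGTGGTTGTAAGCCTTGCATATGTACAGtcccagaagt
Ighg2b-201, 113307261 to 113307326: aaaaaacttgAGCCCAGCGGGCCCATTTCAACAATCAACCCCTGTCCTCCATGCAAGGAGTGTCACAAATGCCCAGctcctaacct
Ighg2c-202, 113288263 to 113288325: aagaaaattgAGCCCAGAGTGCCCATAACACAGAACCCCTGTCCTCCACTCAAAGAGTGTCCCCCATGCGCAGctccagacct
Ighg3-201, 113360529 to 113360576: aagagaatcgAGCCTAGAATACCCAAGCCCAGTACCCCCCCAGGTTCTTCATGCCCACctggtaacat
The hinge exon is 39 bases long in Ighg1, 66 in Ighg2b, 63 in Ighg2c and 48 in Ighg3. Across the whole coding sequence the 4 genes share 76.2% to 86.4% of aligned bases, the highest value being between Ighg2b and Ighg2c. Of all stretches of 50 bases in the printed or main transcripts of the members, 56 of Ighg2b and 56 of Ighg2c occur in the other of these 2 genes, and none of any other member occurs in another gene (5.26% and 5.27% of their stretches). The split of counts between these 2 genes is therefore less certain than the others. Igkc overlaps the span of the predicted gene Gm30211 on its own strand, but none of its stretches of 50 bases occurs in a listed transcript of another gene.

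**Figure D1:**
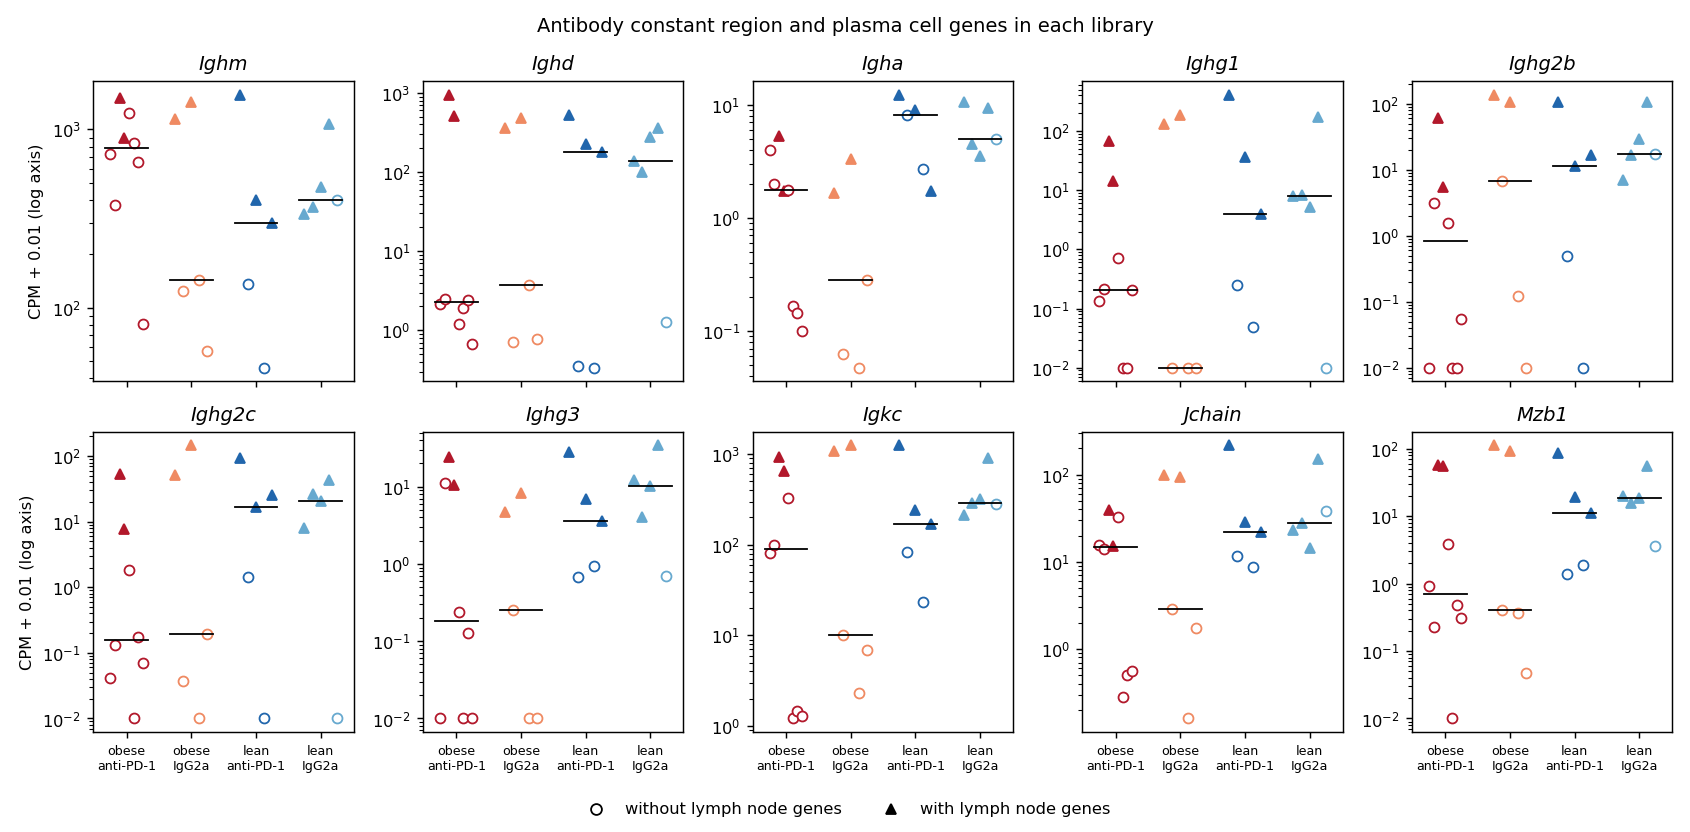
Level of each of the 10 genes in every library, as CPM + 0.01 on a log axis, by diet and antibody group. Open symbols are libraries without and filled symbols libraries with lymph node genes, and the bar is the median of all libraries of a group. Ighd separates the sets fully, at most 3.69 against at least 101.2 CPM, while Ighm overlaps between them.

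The genes differed in how closely they followed the lymph node. Ighd, the second heavy chain of naive B cells, lay between 0.326 and 3.69 CPM in the 12 libraries without lymph node genes and between 101.2 and 949.6 CPM in the 11 with them. Mzb1 lay between 0 and 3.92 CPM without and between 11.1 and 112.2 CPM with lymph node genes. Neither gene overlapped between the sets. Ighg1 and Ighg2c did not overlap either, at 0 to 0.694 against 3.99 to 409 CPM and at 0 to 1.83 against 7.85 to 146 CPM. Neither did the summed B cell or T cell genes given above, and the share of all tested genes without overlap is not given here. Igkc (1.20 to 327 against 169 to 1249 CPM), Jchain (0.150 to 37.7 against 14.3 to 216 CPM), Ighg2b (0 to 17.0 against 5.45 to 137 CPM), Ighg3 (0 to 11.1 against 3.57 to 34.3 CPM), Igha (0.0374 to 8.09 against 1.66 to 12.3 CPM) and Ighm (45.9 to 1234 against 298 to 1565 CPM) overlapped. Where a gene had no count, as Ighg1 had in 6 of the 12 libraries without lymph node genes, a count of 0 allows a level of up to 0.0400 to 0.0581 CPM (3 counts in a library, counting error only).

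Ighm was read at 45.9 CPM or more in every library. Without lymph node genes it measured 725, 378, 1234, 842, 655 and 80.8 CPM in the 6 obese anti-PD-1 libraries (1, 2, 5, 6, 7 and 8), 124, 142 and 57.2 CPM in the 3 obese IgG2a libraries (2, 4 and 5), 135 and 45.9 CPM in the 2 lean anti-PD-1 libraries (2 and 4), and 403 CPM in lean IgG2a 5. Thus 5 of 6 obese anti-PD-1 libraries exceeded all 3 obese IgG2a libraries and both lean anti-PD-1 libraries. With lymph node genes, it was 1501 and 890.3 CPM in obese anti-PD-1, 1147 and 1427 CPM in obese IgG2a, 1565, 400.1 and 298 CPM in lean anti-PD-1, and 336, 366, 473 and 1070 CPM in lean IgG2a mice. These groups overlapped.

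In the fit of all 23 libraries, Ighm differed between obese anti-PD-1 and lean anti-PD-1 mice by a log2 fold change of 0.69 (SE 0.78, edgeR quasi-likelihood adjusted p = 0.675), and between obese IgG2a and lean IgG2a mice by 0.13 (SE 0.85, adjusted p = 0.972). Between obese anti-PD-1 and obese IgG2a mice the difference was 0.44 (SE 0.77, adjusted p = 0.867). None of these passed the threshold of an adjusted p under 0.05. Fitted to the libraries without lymph node genes alone, the difference was 2.76 between obese and lean anti-PD-1 mice (SE 0.87, adjusted p = 0.0634) and 2.55 between obese anti-PD-1 and obese IgG2a mice (SE 0.72, adjusted p = 0.0805), both still short of the threshold, where 11.4% and 3.45% of 22240 genes were called.

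Ighm moved with the summed adipocyte genes of these libraries, though not with each of them. The 7 adipocyte genes summed to 45085, 39389, 50977, 51516, 44564 and 32589.9 CPM in the 6 obese anti-PD-1 libraries without lymph node genes, in the order of the Ighm values above, to 22126, 30865 and 10927 CPM in the 3 obese IgG2a libraries, to 27976 and 28469 CPM in the 2 lean anti-PD-1 libraries and to 34486 CPM in lean IgG2a 5. Over these 12 libraries Ighm and the adipocyte sum had a Spearman rho of 0.89, against 0.13 for Jchain, 0.03 for Igkc and 0.08 for Igha. Gene by gene, its rho was 0.83 with Plin1, 0.80 with Lep, 0.78 with Lpl, 0.68 with Pparg and 0.59 with Cidec, but 0.15 with Adipoq and -0.01 with Fabp4. The points share tissue, depth and diet groups, and the part of adipocyte content in the Ighm levels was not tested. Genes of most alike pattern to Ighm over the 12 libraries, with a common name and outside the antibody genes, were chosen after its levels were seen. They were Slc2a13 (rho 0.97), Bche (0.97), Ncoa4 (0.97), Acad9 (0.96), Kpna6 (0.96) and Opn3 (0.95), while Ighd reached 0.59, Jchain 0.22 and Igkc 0.20. They too were picked from the 19882 genes that passed the filter.

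A secreted IgM needs a light chain, so Ighm was set against the summed kappa and lambda constant regions per transcript length (TPM, a share of all transcripts in a library). With lymph node genes the ratio of Ighm to light chain TPM was narrow, 0.169 to 0.296 with a median of 0.236 over 11 libraries. Without lymph node genes it was 1.79, 0.817, 0.811, 155, 59.7 and 12.3 in obese anti-PD-1 libraries 1, 2, 5, 6, 7 and 8, 2.51, 12.1 and 1.70 in obese IgG2a libraries 2, 4 and 5, and 0.345, 0.439 and 0.296 in lean anti-PD-1 2, lean anti-PD-1 4 and lean IgG2a 5. All 9 obese libraries of this set lay above all 3 lean ones. In obese anti-PD-1 6 and 7 the gap was widest: 842 and 655 CPM of Ighm stood beside 1.20 and 1.47 CPM of Igkc and 0.271 and 0.500 CPM of Jchain. In every library without lymph node genes most of the Ighm estimate was assigned to the secreted form, 67.8% to 93.1%.

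**Figure D2:**
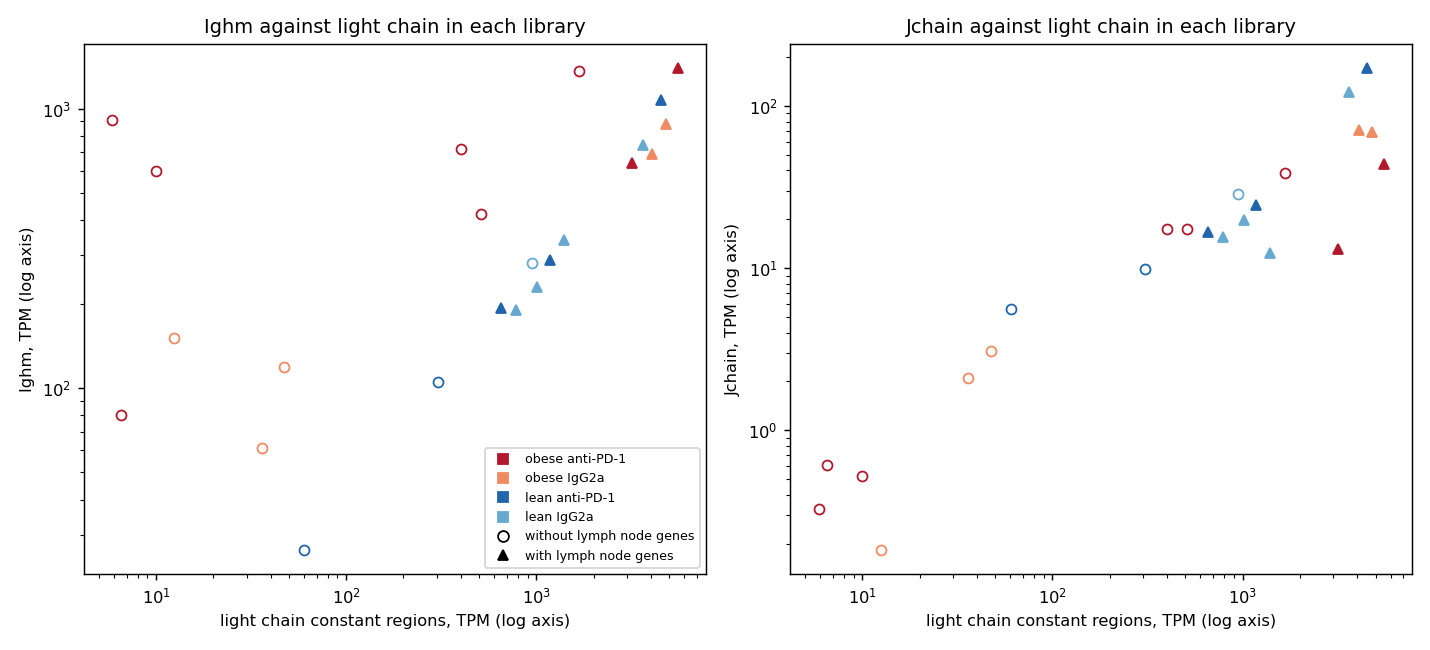
Ighm (left) and Jchain (right) against the summed light chain constant regions in each library, all in TPM on log axes, colored by group, with open symbols for libraries without and filled symbols for libraries with lymph node genes. Jchain tracks the light chain, while Ighm stays high in libraries with almost no light chain, reaching a ratio of 155 in obese anti-PD-1 6.

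Igkc, the constant region of the kappa light chain, measured 81.6, 100.04, 327, 1.20, 1.47 and 1.28 CPM in obese anti-PD-1 libraries 1, 2, 5, 6, 7 and 8. In obese IgG2a libraries 2, 4 and 5 it measured 10.1, 2.30 and 6.81 CPM, in lean anti-PD-1 libraries 2 and 4 it was 82.3 and 23.1 CPM, and in lean IgG2a 5 it was 278 CPM. The obese anti-PD-1 mice therefore comprised 3 libraries within or above the lean range and 3 below it, and all 3 obese IgG2a libraries were below it. Kappa was the main light chain throughout, at 61.7% to 100% of light chain TPM without and 72.2% to 90.8% with lymph node genes. Between obese and lean mice Igkc differed by a log2 fold change of -0.43 under anti-PD-1 (SE 1.41, edgeR quasi-likelihood adjusted p = 0.924) and 0.23 under IgG2a (SE 1.58, adjusted p = 0.972). Both changes turned sign in the fit with the lymph node set as a term, to 0.69 and -0.92.

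The 4 libraries lowest in Igkc were also the 4 lowest in Jchain. It measured 15.7, 14.2, 32.5, 0.271, 0.500 and 0.547 CPM in obese anti-PD-1 libraries 1, 2, 5, 6, 7 and 8, and 2.84, 0.150 and 1.72 CPM in obese IgG2a libraries 2, 4 and 5. In lean anti-PD-1 libraries 2 and 4 it was 11.5 and 8.69 CPM, and in lean IgG2a 5 it was 37.7 CPM. Over the 12 libraries the Spearman rho of Jchain with Igkc was 0.92, with Igha 0.77 and with Mzb1 0.67, against 0.22 with Ighm and 0.02 with Ms4a1. Among genes with a common name outside the antibody genes, the closest pattern was that of Cd8b1, a chain of the CD8 co-receptor (rho 0.87). Cd8b1 lay at 0 to 1.48 CPM, with a mean of 0.591 CPM. Next came Pfkm, a phosphofructokinase (0.81), the secreted Wnt modulator Sfrp2 (0.81), Rab12 (0.80), Hoxa9 (0.80) and Pyurf (0.80), again over libraries that share tissue and diet groups. They were picked from the 19882 genes that passed the filter, and the rho that chance gives among so many was not tested. With lymph node genes Jchain was 39.3 and 15.02 CPM in obese anti-PD-1, 99.0 and 92.7 CPM in obese IgG2a, 216, 28.8 and 21.8 CPM in lean anti-PD-1, and 23.4, 27.7, 14.3 and 150 CPM in lean IgG2a mice, where both obese IgG2a libraries exceeded both obese anti-PD-1 libraries and the lean groups overlapped. The fitted log2 fold change was -1.96 between obese and lean anti-PD-1 mice (SE 1.21, edgeR quasi-likelihood adjusted p = 0.348) and -0.36 between obese and lean IgG2a mice (SE 1.36, adjusted p = 0.948).

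Igha, the heavy chain of IgA, was lower on average in obese than in lean mice under both antibodies. In obese IgG2a mice it measured 0.0374, 0.0534, 0.275, 1.66 and 3.30 CPM, against 3.49, 4.45, 5.03, 9.42 and 10.6 CPM in lean IgG2a mice. These 2 groups did not overlap. In obese anti-PD-1 mice the lowest, median and highest values were 0.0912, 1.74 and 5.29 CPM, against 12.3, 8.09, 8.90, 2.70 and 1.73 CPM in lean anti-PD-1 mice, with overlap. The lowest levels rest on very few reads, 2 to 15 estimated counts in the 3 obese IgG2a libraries without lymph node genes.

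In the fit of all libraries, Igha differed by a log2 fold change of -2.62 between obese and lean IgG2a mice (SE 1.09, unadjusted p = 0.0253, edgeR quasi-likelihood adjusted p = 0.171) and by -1.83 between obese and lean anti-PD-1 mice (SE 0.91, adjusted p = 0.222). Neither passed, in comparisons in which 5.79% and 10.1% of the 19882 tested genes were called. On log2(TPM + 1) with limma the obese IgG2a difference was -2.18 and passed (adjusted p = 0.0335). With the lymph node set as a term it was -2.79 (SE 0.98, edgeR quasi-likelihood adjusted p = 0.0554).

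A fit of diet within each lymph node set, with antibody as a term, was added after the levels were seen. In the libraries without lymph node genes Igha measured 3.97, 1.998, 1.77, 0.155, 0.133 and 0.0912 CPM in obese anti-PD-1 and 0.0534, 0.0374 and 0.275 CPM in obese IgG2a mice, against 8.09 and 2.70 CPM in lean anti-PD-1 and 5.03 CPM in lean IgG2a mice. Igha fell in obese mice there, by 2.86 on the log2 scale (SE 0.91, edgeR quasi-likelihood adjusted p = 0.0279), lower in 8 of 9 obese libraries than in any of the 3 lean ones. It was the 1 member called, while 23.1% of all genes were called in that comparison, and 9.94% of all genes were called as lower in obese mice. With lymph node genes the difference was -1.43 (SE 0.96, adjusted p = 0.347, 15.1% of all genes called), and the difference between the sets was itself -1.43 (SE 1.29, adjusted p = 0.507, 11.6% of all genes called). The call was lost when lean anti-PD-1 2 (-2.75, adjusted p = 0.105) or lean IgG2a 5 (-2.34, adjusted p = 0.101) was left out, and when obese IgG2a 2 and 5 were both left out (-2.49, adjusted p = 0.0617). In the fit of all libraries, mammary epithelial keratin and Epcam genes fell in obese against lean anti-PD-1 mice in 7 of 7 cases, beside 10.1% of all genes called, and in obese against lean IgG2a mice in 3 of 7, beside 5.79%, where the log2 fold changes of the 7 genes were -3.19 to -1.01. Their part in the Igha difference was not tested.

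None of the 10 genes was called by edgeR's quasi-likelihood test in any of the 5 comparisons of all libraries, whose backgrounds were 10.1% (obese against lean under anti-PD-1), 5.79% (obese against lean under IgG2a), 0.538% (anti-PD-1 against IgG2a in obese mice) and 0.0% (anti-PD-1 against IgG2a in lean mice, and the interaction). At an unadjusted p under 0.05 the count was 0, 1, 0, 0 and 0 of 10, and DESeq2 called 0 in each, with 1, 1, 0, 0 and 0 at an unadjusted p under 0.05. The median log2 fold change of the members was -1.14 beside 0.08 over all tested genes in obese against lean anti-PD-1 mice, and 0.18 beside 0.12 in obese against lean IgG2a mice. For anti-PD-1 against IgG2a it was -1.13 beside -0.0027 in obese mice and 0.06 beside -0.04 in lean mice, and for the interaction -1.11 beside 0.02. Standard errors were 0.78 to 2.15 in the first comparison and up to 3.25 for the interaction. Ighg1 had the widest and differed by -3.11 (SE 2.15, adjusted p = 0.418) between obese and lean anti-PD-1 mice. The comparisons share groups, so their values are not independent of each other.

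With the lymph node set as a term, 12.0%, 15.8%, 2.8%, 0.0% and 0.0% of all genes were called and again none of the 10, at 2, 1, 2, 0 and 0 with an unadjusted p under 0.05. The nearest to the threshold beside Igha were Ighd, at 1.42 (SE 0.50, edgeR quasi-likelihood adjusted p = 0.0649), and Ighm, at 1.94 (SE 0.70, adjusted p = 0.0726), both between obese and lean anti-PD-1 mice. Mzb1 differed by 1.90 (SE 0.68, adjusted p = 0.102) between obese and lean IgG2a mice in the libraries with lymph node genes, where 9.16% of 20704 genes were called.

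Fitted to each set alone, 0 of the 10 genes were called in any of the 5 comparisons. In the libraries without lymph node genes the backgrounds over 22240 genes were 11.4% and 1.15% for obese against lean mice under anti-PD-1 and IgG2a, 3.45% and 0.00899% for anti-PD-1 against IgG2a in obese and lean mice, and 0.00899% for the interaction, with 2, 1, 3, 0 and 1 of the 10 genes at an unadjusted p under 0.05. Lean IgG2a has 1 library in this set, which is assumed to vary like the other groups. In those with lymph node genes the backgrounds over 20704 genes were 2.77%, 9.16%, 0.0%, 0.0% and 0.0%, with 1, 2, 0, 0 and 0 of the 10.

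The form of Ighm separated the sets and, within the libraries with lymph node genes, the diets. The secreted form held 67.8% to 93.1% of Ighm TPM in the 12 libraries without and 12.3% to 44.4% in the 11 with lymph node genes. Among the latter, it held 14.9%, 12.4%, 12.3% and 18.8% in the 4 obese libraries, a mean of 14.6% ± 3.09 (SD), and 32.9% ± 8.81 in the 7 lean libraries, whose lowest, median and highest values were 24.3%, 31.6% and 44.4%. Obese and lean did not overlap. An exact two-sided permutation test gave p = 0.00606, the smallest that 4 against 7 libraries allow, and 0.0727 after Benjamini-Hochberg adjustment over the 16 tests of composition, short of 0.05. Without lymph node genes the share was 76.2% ± 7.05 in 9 obese and 89.5% ± 4.25 in 3 lean libraries (exact permutation p = 0.0182, adjusted 0.0727). The obese libraries include those with high Ighm and almost no light chain, whose reads were not analysed here, and the part of that Ighm estimate in the share was not tested. Naive B cell genes moved with this share: the summed B cell list spanned 2853 to 4682 CPM in the 4 obese and 570 to 3150 CPM in the 7 lean libraries with lymph node genes, and their part in it was not tested.

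**Figure D3:**
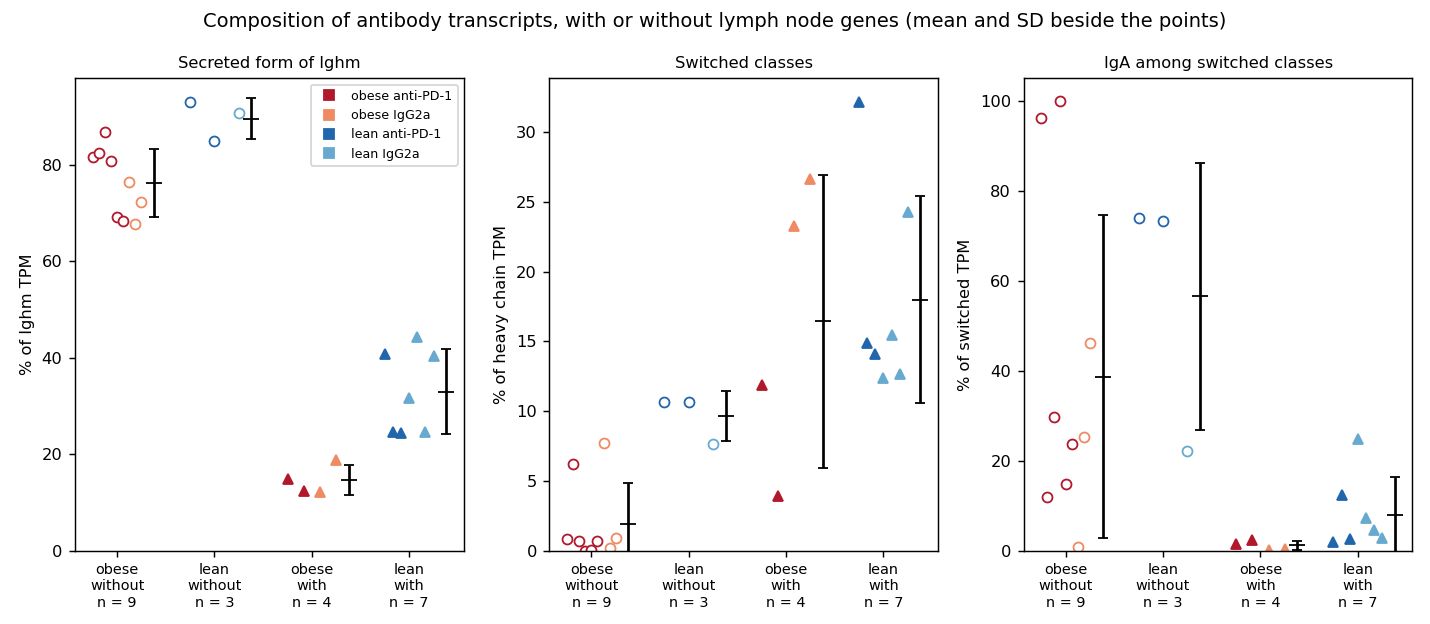
Composition of the antibody transcripts in libraries without (left pair) and with (right pair) lymph node genes, obese left of lean: the secreted share of Ighm, the switched share of heavy chain TPM and the IgA share of switched TPM. Points are libraries colored by group, and the mark beside them is the mean with its SD. The secreted share of the 4 obese libraries with lymph node genes, 12.3% to 18.8%, lies below that of all 7 lean ones.

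Between anti-PD-1 and IgG2a libraries, the exact permutation p was 0.182 or more for all 6 tests of the secreted share of Ighm, the switched share and the IgA share, adjusted 0.416 or more.

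Switched classes, IgA and IgG together, made up 1.93% ± 2.90 of heavy chain TPM in 9 obese and 9.65% ± 1.77 in 3 lean libraries without lymph node genes (SD, exact permutation p = 0.0182, adjusted 0.0727). The lean values were 10.7%, 10.7% and 7.61%. Of the obese ones, 7 lay at 0.879% or less, while obese anti-PD-1 2 reached 6.21% and obese IgG2a 2 7.73%, so the groups overlapped by 1 library. The denominator of this share is mostly Ighm, which in the obese libraries of this set stood above the light chain by the ratios given above, and the part of that Ighm level in the low obese share was not tested. With lymph node genes the share was 16.4% ± 10.5 in 4 obese and 18.0% ± 7.43 in 7 lean libraries (exact permutation p = 0.800, adjusted 0.853). Ighm made up nearly all of the remainder without lymph node genes (88.8% to 99.8% of heavy chain TPM, against 52.2% to 68.1% with them), since Ighd was nearly absent.

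Which switched class led differed from library to library where lymph node genes were absent. In obese anti-PD-1 1 Igha held 96.1% of switched TPM (268 estimated counts in all switched classes), in obese anti-PD-1 2 Ighg3 held 67.9% (1077 counts), and in obese IgG2a 2 Ighg2b held 95.3% (524 counts). In lean anti-PD-1 2 and 4 Igha held 74.0% and 73.4% (634 and 191 counts), and in lean IgG2a 5 Ighg2b held 74.6% (1532 counts). Obese anti-PD-1 5 was mixed, with 29.6% of switched TPM in Igha and 28.6% in Ighg2c (117 and 121 of 403 estimated counts). The other 5 obese libraries held 8 to 26 switched counts, too few to rank the classes. Libraries with lymph node genes held 2408 to 37882 switched counts, and Ighg1, Ighg2b, Ighg2c or Ighg3 led in each, up to 62.0% for Ighg1 in lean anti-PD-1 1.

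**Figure D4:**
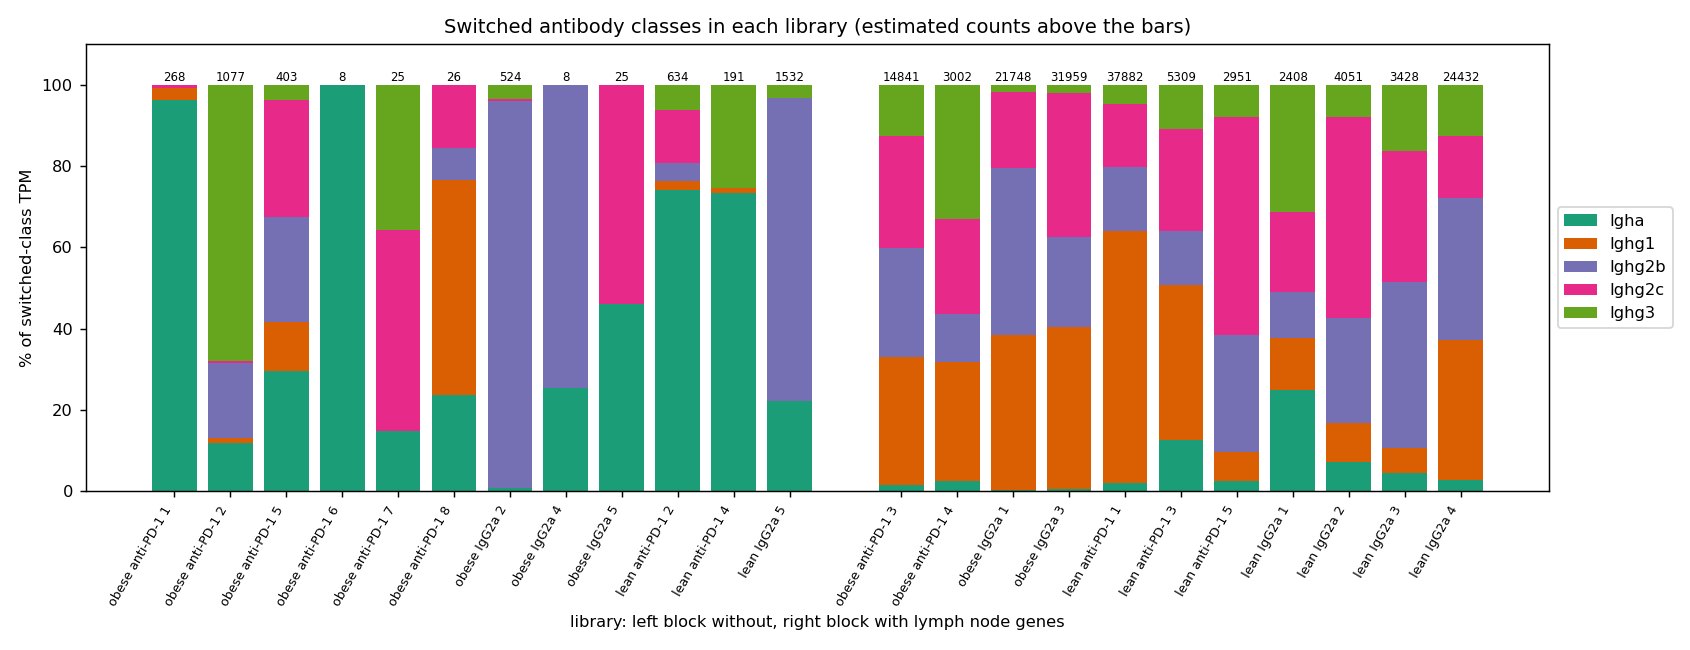
Share of each switched heavy chain class in the summed TPM of Igha and the Ighg genes, as stacked bars for each library, without lymph node genes on the left and with them on the right. The number above each bar is the estimated count behind it. Among bars of at least 100 counts, single classes reach 96.1% on the left, while on the right the highest is 62.0%.

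IgA as a share of switched classes was 1.18% ± 1.05 in 4 obese and 8.04% ± 8.25 in 7 lean libraries with lymph node genes (SD, exact permutation p = 0.0121, adjusted 0.0727). The obese values were 1.56%, 2.48%, 0.231% and 0.438%, and the lowest, median and highest lean values 1.91%, 4.50% and 24.8%. The ranges overlapped narrowly. Without lymph node genes the share was 38.7% ± 35.9 in 9 obese and 56.5% ± 29.7 in 3 lean libraries (exact permutation p = 0.482, adjusted 0.597). Among the 4 obese libraries of this set with at least 100 switched counts, it spanned 0.776% to 96.1%, and among the 3 lean ones 22.2% to 74.0%.

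Variable segments, the part of the antibody gene that binds antigen, were compared by how evenly their counts were spread. The number of different antibodies was not measured. Among libraries with at least 100 counts in them, the leading heavy chain variable segment held a median of 40.5% of counts in 7 libraries without (17.7% to 82.2%) and 7.44% in 11 libraries with lymph node genes (5.33% to 27.0%). The effective number of segments, the inverse of the summed squared shares, had a median of 4.67 without and 37.2 with lymph node genes. For kappa segments the leading share was 33.5% in 8 libraries without (23.6% to 51.6%) and 6.63% in 11 with lymph node genes (5.22% to 24.8%). Low counts alone give high leading shares, so libraries of like depth are the better comparison. Lean IgG2a 5, without lymph node genes, had 32.5% of 4702 kappa counts in Igkv1-117, and lean IgG2a 1, with them, 8.38% of 2781 counts in Igkv10-96.

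Among the same libraries without lymph node genes, 6 different heavy chain segments led in 7 libraries and 5 different kappa segments in 8. Igkv14-126 led the kappa chain in 3 libraries and Igkv3-5 in 2. Ighv11-2 held 40.5% of 1131 counts in obese anti-PD-1 1, in which Igkv14-126 also held 50.6% of 2627 kappa counts. The pair of Ighv11-2 and Igkv14-126 is known in the mouse as a combination of B-1 cells that bind phosphatidylcholine. Obese anti-PD-1 2 had Ighv1-55 in the lead (42.4% of 1437 counts), with Igkv14-126 at 34.6% of 3204 kappa counts. Igkv3-2 led in obese anti-PD-1 5 with 51.6% of 9599 counts. In lean anti-PD-1 4, Ighv6-3 held 82.2% of 163 counts.

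**Figure D5:**
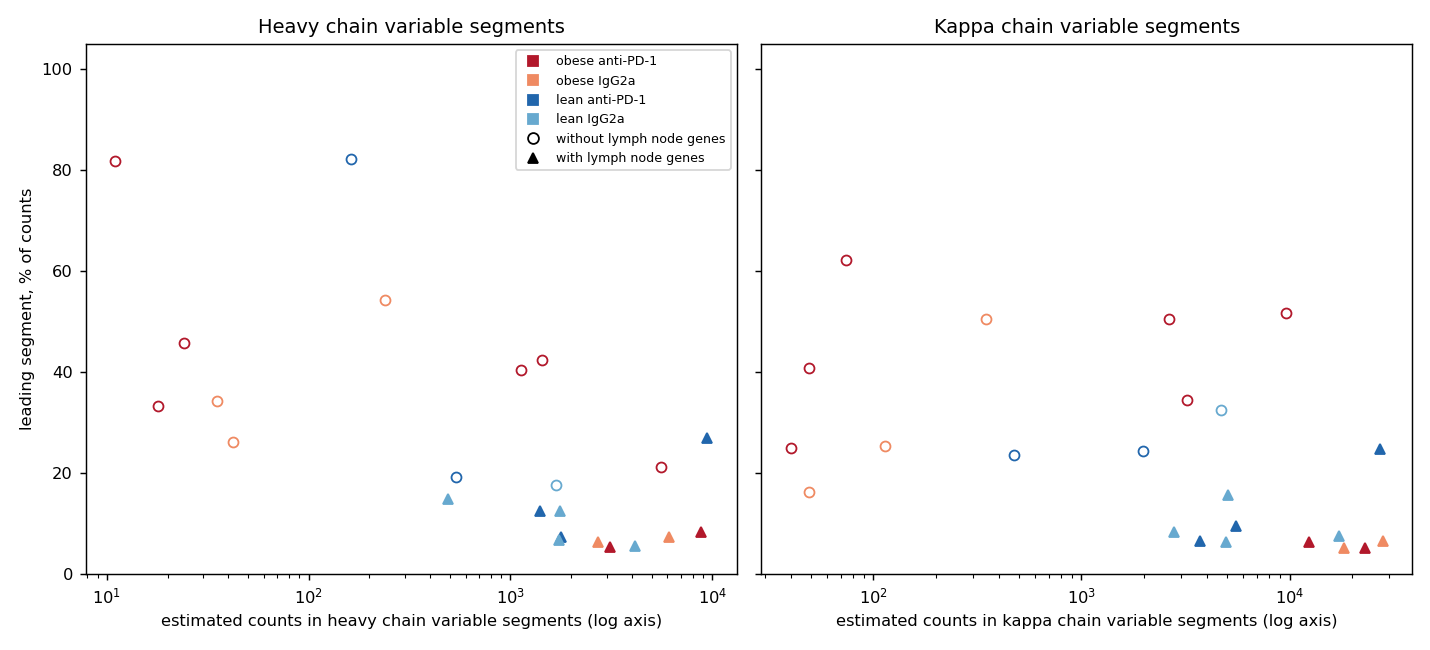
Share of the leading variable segment, in percent of the estimated counts of all variable segments of the heavy chain (left) or kappa chain (right), against the number of those counts on a log axis, for each library. Open symbols are libraries without lymph node genes and filled symbols libraries with them. At 1131 counts or more the open symbols lie at 17.7% or more, and the filled ones at 27.0% or less.

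The transcription factors and secretory genes of plasma cells were taken as a list of 18 genes, all tested. In obese against lean anti-PD-1 mice, 2 rose and 1 fell, beside 10.1% of all genes called. Edem1, which clears misfolded proteins from the endoplasmic reticulum, rose by a log2 fold change of 1.05 (SE 0.21, edgeR quasi-likelihood adjusted p = 0.00347), and Ell2, an elongation factor that favors the secreted heavy chain form in plasma cells, by 0.95 (SE 0.28, adjusted p = 0.0361). Creld2, an endoplasmic reticulum stress gene, fell by 0.88 (SE 0.27, adjusted p = 0.0375). In obese against lean IgG2a mice 3 rose and 0 fell, beside 5.79% of all genes: Edem1 (0.81, SE 0.23, adjusted p = 0.0390), the plasma cell surface proteoglycan Sdc1 (1.74, SE 0.51, adjusted p = 0.0429) and Prdm1, the regulator of plasma cell fate (2.35, SE 0.70, adjusted p = 0.0499). In the other 3 comparisons none of the 18 was called, at 4, 0 and 2 with an unadjusted p under 0.05.

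List members were set against Jchain and Ighm over the 12 libraries without lymph node genes. Sdc1 had a Spearman rho of -0.61 with Jchain, Prdm1 -0.55, Ell2 -0.23, Edem1 -0.05, Creld2 0.17 and Xbp1 0.19, against 0.70 for Irf4 and 0.68 for Pou2af1. With Ighm the rho was 0.67 for Edem1, 0.66 for Ell2 and 0.59 for Ighd, and -0.75 for Sdc1, -0.72 for Creld2 and -0.08 for Prdm1. By Pearson correlation the order of the first 3 changed, with 0.57 for Edem1 and 0.54 for Ell2 against 0.63 for Ighd. Without the 2 libraries farthest from the median of Ighm, these values were 0.27, 0.28 and 0.61. Sdc1 and Prdm1 were highest in obese IgG2a 2 and 5, at 165 and 249 CPM of Sdc1 and 11.6 and 25.96 CPM of Prdm1. Jchain was 2.84 and 1.72 CPM there. It was lower still in obese IgG2a 4 (0.150 CPM) and obese anti-PD-1 6, 7 and 8 (0.271, 0.500 and 0.547 CPM). Without obese IgG2a 2 and 5 the obese IgG2a differences were 0.06 for Sdc1 (adjusted p = 0.973), 1.45 for Prdm1 (adjusted p = 0.477) and 0.66 for Edem1 (adjusted p = 0.269). Liver genes were present in obese IgG2a 5, where 8 of them summed to 9146 CPM. Xbp1, the transcription factor of the secretory program, lay at 110 to 302 CPM in all 23 libraries and differed by -0.25 (SE 0.19, adjusted p = 0.492) and -0.21 (SE 0.22, adjusted p = 0.706) between obese and lean mice under anti-PD-1 and IgG2a. Tnfrsf17, a survival receptor of plasma cells, reached at most 0.973 CPM in any library. When each library was left out in turn, the anti-PD-1 call of Edem1 was kept in 23 of 23 fits, that of Ell2 in 16 and that of Creld2 in 7, and in IgG2a mice Edem1 kept it in 17, Sdc1 in 13 and Prdm1 in 7.

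Receptors that bind or carry antibodies were a list of 9 genes. Fcgr1, the high-affinity receptor for IgG, rose in obese against lean IgG2a mice by 1.73 (SE 0.50, edgeR quasi-likelihood adjusted p = 0.0411), the 1 gene of the list called there, beside 5.79% of all genes. It measured 6.94, 28.8, 15.3, 7.62 and 29.1 CPM in obese IgG2a mice, against 2.45, 5.57, 8.15, 4.37 and 5.86 CPM in lean IgG2a mice, with overlap, and without obese IgG2a 2 and 5 the difference was 0.94 (adjusted p = 0.536). Its call was kept in 15 of 23 fits that left out 1 library. Pigr, which carries polymeric IgA and IgM across epithelia, fell in obese anti-PD-1 against obese IgG2a mice by 5.53 (SE 1.26, adjusted p = 0.0498), the 1 gene of the list called in that comparison, beside 0.538% of all genes. That value rests on obese IgG2a 5, with 191 CPM, while all other libraries lay at 4.45 CPM or less, and without obese IgG2a 2 and 5 it was -0.47 (adjusted p = 0.870). The call of Pigr was kept in 5 of those 23 fits. No gene of this list was called in the remaining 3 comparisons.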

How the data were processed

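RNA of 23 tumor-adjacent mammary fat pads was sequenced from non-directional, oligo-dT enriched libraries, per the labels' protocols, so reads carry no strand. For 115088 transcripts the deposited files hold the estimated count made by the authors (not normalized) and TPM, which the authors scaled by effective length to a fixed total per library. The submitters' processing notes name edgeR, limma and GRCm38. The program behind the estimates was not given in the sources used here.

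Transcripts were matched to genes by GENCODE M21 (114200 matched; the 888 others held at most 0.208% of a library's counts), and estimated counts and TPM were summed per gene. Sequences are the GENCODE M21 transcripts, on GRCm38. Rounded counts passing edgeR's filterByExpr (minimum count 10) were scaled by TMM and fitted with edgeR 4.0.16 (R 4.3.3, robust quasi-likelihood, 1 mean per group, all 23 libraries, two-sided, Benjamini-Hochberg over all genes tested). Genes with an adjusted p under 0.05 were called. The biological coefficient of variation, as a common value, was 0.805. Shares and ratios per library were compared by exact two-sided permutation tests, adjusted over 16 tests, of which those of 1 measure, and 1 gene that the naming rule covers, are not reported here. The fit was also run on simulated counts. These had a smaller spread than the data and no lymph node division, so they do not test the fit under those conditions.

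The members, lists and tests were chosen with earlier results of these data known. Every member is described. Of the other lists, up to 3 genes of smallest p per list and comparison may be named, with Ms4a1, Prdm1, Xbp1, Sdc1 and Glycam1 throughout. Other genes named by their values were chosen after these were seen, as were the fit of diet within lymph node sets, the fits without obese IgG2a 2 and 5 together, the minimum of 100 switched counts and the likeness to Ighm. Likeness is the Spearman correlation of log2(CPM + 0.1) over the 12 libraries without lymph node genes. Alternatives were DESeq2 1.42.0 size factors or test, no filter or 1 CPM in 5 libraries, limma 3.58.1 on log2(TPM + 1), the lymph node set as a term or each set alone, a fit of the compared groups alone, and fits with 1 library omitted. Depth speaks for counting error only.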

Additional observations from a re-analysis of the deposited data

Results flagged for a closer look

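Single libraries stood far above the rest of their group in 17 of the gene levels and in 2 IgA shares, out of 68 groups of 4 to 10 libraries examined. The rule marks about 1 in 20 groups of independent, normally spread values. That rate does not hold here, since CPM levels are skewed and the members are not independent. Each group of gene levels also mixes libraries with and without lymph node genes. All 17 levels belong to 3 libraries, each with lymph node genes.

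Lean anti-PD-1 1 was marked by the rule among its 5 libraries in 8 members. It was also highest of them, unmarked, in Ighd (533 CPM, next 226) and Igha (12.3 CPM, next 8.90). Among the marked members, it had 1565 CPM of Ighm (next 400.1), 409 CPM of Ighg1 (next 36.1), 106 CPM of Ighg2b (next 16.6), 94.9 CPM of Ighg2c (next 25.8) and 28.1 CPM of Ighg3 (next 6.85). Its light chain and secretory genes stood apart as well, at 1247 CPM of Igkc (next 239.7), 216 CPM of Jchain (next 28.8) and 85.8 CPM of Mzb1 (next 19.3). In this library Ighv3-6 held 27.0% of heavy chain variable segment counts and Igkv14-111 24.8% of kappa counts, the highest leading shares of the 11 libraries with lymph node genes.

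Lean IgG2a 4 was marked among its 5 libraries in Ighm (1070 CPM, next 473), Ighg1 (170.1 CPM, next 8.32), Ighg2b (107 CPM, next 28.9), Igkc (911 CPM, next 321) and Jchain (150 CPM, next 37.7). It was also highest of them, unmarked, in Ighd (360 CPM, next 280), Ighg2c (43.3 CPM, next 26.1), Ighg3 (34.3 CPM, next 12.3) and Mzb1 (55.0 CPM, next 19.8). In Igha it had 9.42 CPM, below the 10.6 CPM of lean IgG2a 1. Obese anti-PD-1 3 was marked among its 8 libraries in the IgG genes, with 67.5 CPM of Ighg1 (next 14.4), 60.4 CPM of Ighg2b (next 5.45), 53.8 CPM of Ighg2c (next 7.85) and 23.9 CPM of Ighg3 (next 11.1). It was also highest of them, unmarked, in Ighm (1501 CPM, next 1234), Ighd (949.6 CPM, next 508) and Igha (5.29 CPM, next 3.97). The same held for Igkc (933 CPM, next 650), Jchain (39.3 CPM, next 32.5) and Mzb1 (58.3 CPM, next 55.2).

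As a share of switched heavy chain, IgA reached 12.5% in lean anti-PD-1 3, where the next anti-PD-1 library with lymph node genes had 2.60%. Lean IgG2a 1 had 24.8%, where the next IgG2a library with lymph node genes had 7.28%.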

How the results depend on the processing

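No paired analysis was made, since each mouse gave 1 library under 1 diet and 1 antibody. The labels carry no replicate numbers. In the 5 comparisons of all libraries, the count of members called was 0 under every alternative except limma on log2(TPM + 1), which called 1 (Igha) in obese against lean IgG2a mice, and it was 0 whichever library was left out. In the fit of diet within lymph node sets, the count without lymph node genes was 1, and 0 to 2 when each library was left out. Ighg3 joined without obese anti-PD-1 2 (-3.34, edgeR quasi-likelihood adjusted p = 0.0159) and Mzb1 without obese anti-PD-1 5 (-2.74, adjusted p = 0.00734), while without lean IgG2a 5 Ighd (2.58, adjusted p = 0.0198) took the place of Igha. With lymph node genes the count was 0, and 0 to 1 when each library was left out (Ighd at 1.56, adjusted p = 0.0251, without lean anti-PD-1 1). Without obese IgG2a 2 and 5 together the counts were 0 without and 1 with lymph node genes (Ighd at 1.28, adjusted p = 0.0490). The Igha difference without lymph node genes ranged over -3.55 to -2.34 when each library was left out.

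Several uncalled log2 fold changes turned sign, and the cause was not tested. Under limma on log2(TPM + 1), Ighm was -0.44 and Igkc -2.53 in obese against lean IgG2a mice. With the lymph node set as a term, Igkc was 0.69 under anti-PD-1 and -0.92 under IgG2a. In libraries without lymph node genes alone, Ighm was -1.95 and Igkc -5.47 under IgG2a, and Igkc 0.60 under anti-PD-1. In libraries with lymph node genes alone, Igkc was 0.59 under anti-PD-1, Jchain 0.83 under IgG2a, and Ighm -0.043 in obese anti-PD-1 against obese IgG2a mice. Without obese IgG2a 2 and 5 together, Ighm was -0.21 in that last comparison and Jchain 0.38 in obese against lean IgG2a mice. Leaving out each library gave ranges across 0 for obese against lean IgG2a mice in Ighm (-0.48 to 0.60), Igkc (-0.48 to 0.83) and Jchain (-0.98 to 0.65), and for Igkc under anti-PD-1 (-1.08 to 1.12). Among the composition measures it did so, in percentage points, for the switched share, obese minus lean with lymph node genes (-4.98 to 2.60) and anti-PD-1 minus IgG2a without them (-1.67 to 0.86), and for the IgA share, anti-PD-1 minus IgG2a with lymph node genes (-4.52 to 1.16).

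No composition measure passed under any alternative. The smallest exact permutation p that the numbers of libraries in the main tests allow is 0.00404 to 0.00909. Over 16 tests, a single p of that size cannot pass after adjustment unless others are also low. Dividing the libraries at 1 or 100 CPM of Glycam1 moved 0 of them. For the interaction, the fit of only the groups compared is the fit of all groups and was not run again. Ighg levels without lymph node genes rest on few counts, which limits their precision.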

Other observations

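The remaining antibody constant regions were the lambda light chains Iglc1, Iglc2 and Iglc3 and the IgE heavy chain Ighe, all 4 tested. They summed to 0 to 22.4 CPM without and 32.3 to 263 CPM with lymph node genes. None was called in the 5 comparisons, the nearest being Ighe in obese against lean anti-PD-1 mice (-4.36, SE 1.93, edgeR quasi-likelihood adjusted p = 0.161).

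Of 8 germinal center genes, which mark B cells maturing in lymphoid tissue, and of 14 genes that attract plasma cells or keep them alive, 0 were called in each of the 5 comparisons. At an unadjusted p under 0.05, at most 1 gene of either list was present in a comparison. The nearest were S1pr2, a receptor that holds B cells in germinal centers (-0.69, SE 0.29, edgeR quasi-likelihood adjusted p = 0.133, in obese against lean anti-PD-1 mice), and Ccr10, a chemokine receptor of IgA plasma cells (-1.87, SE 0.53, adjusted p = 0.106, in obese anti-PD-1 against obese IgG2a mice). The B cell, T cell and lymph node stroma lists likewise held 0 called genes in all 5 comparisons, at no more than 1 with an unadjusted p under 0.05.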
